A study of Mus musculus with 12 samples.

Results

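The enzymes described here belong to 8 families that conjugate, hydrolyse or oxidise and reduce reactive compounds. They are the glutathione transferases (Gst and Mgst genes), UDP-glucuronosyltransferases (Ugt), sulfotransferases (Sult), carboxylesterases (Ces), epoxide hydrolases (Ephx), alcohol dehydrogenases (Adh), aldehyde dehydrogenases (Aldh) and aldo-keto reductases (Akr). A probe set was taken when the platform annotation gave it a single gene symbol that began with the letters of such a family followed by a number, with a class letter in between for the soluble glutathione transferases. This rule found 79 probe sets for 58 of the 8251 genes that had a probe set of their own, among the 12488 probe sets of the table, of which 12422 remained after 66 control probe sets of the manufacturer were left out. Glutathione transferases had 27 probe sets for 18 genes, aldehyde dehydrogenases 18 for 10, sulfotransferases 10 for 9, aldo-keto reductases 7 for 7, carboxylesterases 6 for 5, alcohol dehydrogenases 6 for 4, UDP-glucuronosyltransferases 3 for 3 and epoxide hydrolases 2 for 2. All 79 were tested, with no filter on low values.

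Liver, cortex and cerebellum of 1 adult NMR-1 mouse were profiled on 12 MG_U74Av2 arrays, Affymetrix oligonucleotide arrays of mouse transcripts. In the 3X groups each tissue had 3 technical replicates, which started from 1 ng of total RNA and went through 3 linear amplifications with the RiboAmp HS kit of Arcturus. In the 1X groups each tissue had 1 array, made from 5 µg of RNA by the Affymetrix standard protocol with 1 linear amplification. RNA amount, kit and amplification number therefore differ together between 3X and 1X. The labels give no treatment or mutant allele, and both procedures used RNA extracted from frozen tissue with TRIzol and a column. Since every array came from the same animal, p-values measure the spread between technical replicates and not between mice. The tissues were taken whole, so that fewer cells of a type and less RNA per cell cannot be told apart.

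These families make foreign and endogenous compounds easier to excrete or less reactive. Oxidising and reducing enzymes and hydrolases expose or remove a reactive group, and transferases then attach glutathione, glucuronic acid or sulfate to the product. The liver is the main organ of this metabolism, while in the brain some members act on neurotransmitters, steroids, retinoids and the aldehydes that arise from lipids.

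Signals are log2 values made by the authors with RMA, which gives no detection call. A group mean below 3.45, the lowest of the 12 array medians, is called dim here, and no fold is given where a group compared was dim. A log2 difference against a dim group depends on the probes' floor, so that nothing is read from the order of such differences. On the 3X arrays 27 of the 79 probe sets were dim in liver, against 46 that were dim in both cortex and cerebellum. Of all 12422 probe sets, 50% were dim in 3X liver and 48.3% in both 3X brain regions. Tissue labels were checked with marker genes: 9 of 10 hepatocyte markers were higher in liver, 5 of 7 neuronal markers were lower in liver, 3 of 6 cortical neuron markers were higher in cortex, and 6 of 7 cerebellar neuron markers were lower in cortex. The cerebellum arrays stood apart in kidney markers, of which 5 of 10 were called lower in 3X cortex than in cerebellum. The summed linear signal of the 10 was 310.5 to 320.4 in 3X cerebellum and 919 in 1X cerebellum, against 154.6 to 168.2 in the 6 other 3X arrays and 127.4 to 142.9 in the other 1X arrays. The sum in 1X cerebellum mostly follows Kap (8.66) and Miox (8.51), the brightest of the 10 there. In liver, 3X replicate 3 resembled the 1X liver array more than replicates 1 and 2 did over all probe sets (Pearson's r of 0.928 for replicate 3, and 0.894 and 0.893 for the others; probe sets of an array are no independent samples). The main counts are also given without these arrays, and values of named members where leaving them out changed a call. Counts from such recomputed fits stand without the share of all probe sets in the same fit. They show how far a count moved, not whether the members still differed from the whole array. RMA gives every probe set a value, so that no marker can be read as absent.

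Liver carried more of these transcripts than the brain on the 3X arrays. Setting liver against the mean of cortex and cerebellum, 44 of the 79 probe sets (55.7%) passed an adjusted p of 0.05, against 20.4% of all 12422 (limma, Benjamini-Hochberg over the whole table). Of these, 40 probe sets for 35 genes were higher in liver (50.6%, against 8.17% of all) and 4 probe sets for 2 genes, Gstm5 and Mgst3, were lower (5.06%, against 12.3% of all). In 41 of the 44 the liver arrays did not overlap the brain arrays (background 17.1%), 38 of them higher (background 7.25%) and 3 lower (background 9.89%). The median difference was 0.37 over the 79 probe sets and 0.01 over all probe sets, and fitted differences ran between -2.97 and 6.48. All 6 carboxylesterase probe sets were higher in liver, as were 5 of 6 for alcohol dehydrogenases, 9 of 18 for aldehyde dehydrogenases, 11 of 27 for glutathione transferases, 4 of 10 for sulfotransferases, 2 of 7 for aldo-keto reductases, 2 of 3 for UDP-glucuronosyltransferases and 1 of 2 for epoxide hydrolases. Of the 40 higher probe sets, 18 were above the dim limit in liver and dim in both brain regions, and 7 were dim in liver as well. Of the 1015 probe sets higher in liver over the whole array, 211 and 253 were of these kinds. The plot of tissue differences shows the whole set.

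**Figure D1:**
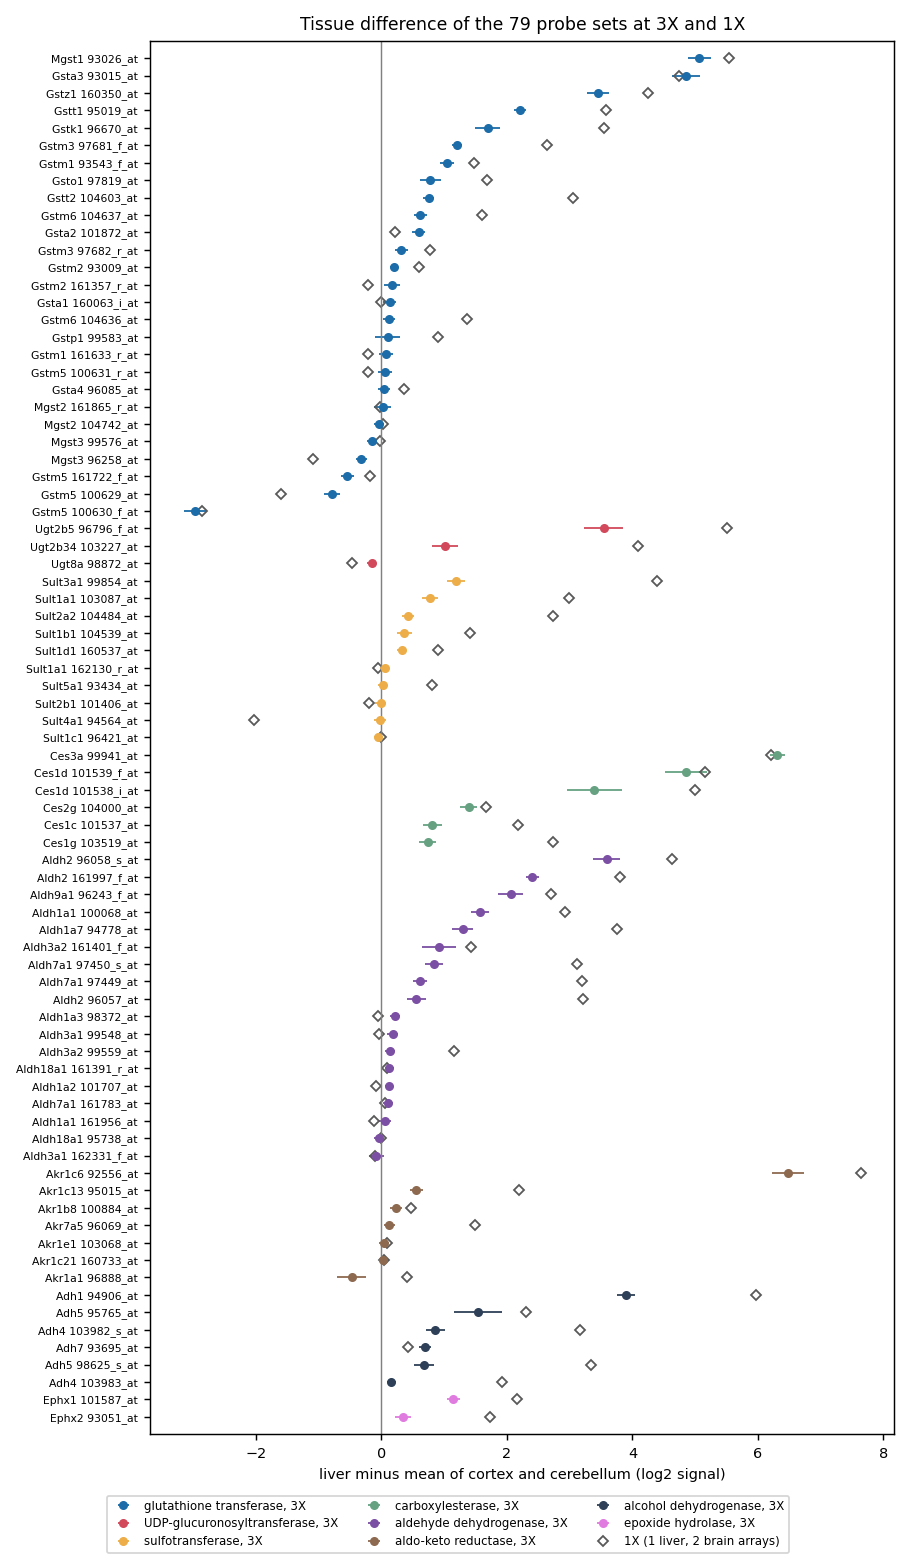
Difference between liver and the mean of cortex and cerebellum (log2 signal, horizontal axis) for the 79 probe sets, ordered by family and size; filled circles with SE bars are the 3X arrays and open diamonds the 1X arrays, which have no error. The 3X differences run between -2.97 for Gstm5 and 6.48 for Akr1c6, and most diamonds of the liver-high probe sets lie further right than their circles.

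RefSeq start sites (build GRCm38.p6) were available for 47 of the 58 genes, as 56 windows of 300 bases that run from 250 before to 50 after the start. Windows with fewer than 5 CpG pairs made up 21 of 36 (58.3%) for genes higher in liver, 7 of 18 (38.9%) for genes not called and 0 of 2 for the genes lower in liver, against 38.0% of 32851 windows of all genes. The median number of CpG pairs was 3 for genes higher in liver, 8 for genes not called and 7 over all windows, and the windows of the 2 genes lower in liver, Gstm5 and Mgst3, held 18 and 21. These are descriptions of the windows and were not tested. The letters TATAAA, searched on both strands, were in 25.0% of the windows of the liver-high genes and in 13.6% of all windows, and TTGCNNAA, a pattern bound by CCAAT/enhancer-binding proteins, in 19.4% and 10.8%. The counts behind these shares are 9 and 7 of the 36 windows. The pattern of the liver factor HNF1 was in 1 of the 36 (2.78%), against 0.399% of all. That single window belonged to Sult1d1, whose liver difference was only 0.32. TGACNNNGC, the core of the antioxidant response element, was in 3 of the 36 (8.33%), against 12.4% of all. CAAAGTCCA, a pattern of HNF4, was in none of the 36 and in 0.475% of all. A motif match is no binding site, and overlaps between motifs were not removed. The sequences of 3 liver-high genes with few CpG pairs and of both genes lower in liver are printed as examples, chosen after their values were seen, in the direction of transcription, with CpG pairs in capitals. They are the windows of Akr1c6 (chr13:4434093-4434392, plus strand, no CpG), Gsta3 (chr1:21240335-21240634, plus strand, 2 CpG), Ugt2b5 (chr5:87140291-87140590, minus strand, 1 CpG), Gstm5 (chr3:107895604-107895903, plus strand, 18 CpG) and Mgst3 (chr1:167393792-167394091, minus strand, 21 CpG). Other genes far above the brain had more in at least 1 window: Adh1 had 6 CpG pairs in its window, Mgst1 13 and 1 in its windows, and Gstz1 15 and 3. Ces3a, Ces1d and Aldh2, also far above the brain, were among the genes without a window.
Akr1c6: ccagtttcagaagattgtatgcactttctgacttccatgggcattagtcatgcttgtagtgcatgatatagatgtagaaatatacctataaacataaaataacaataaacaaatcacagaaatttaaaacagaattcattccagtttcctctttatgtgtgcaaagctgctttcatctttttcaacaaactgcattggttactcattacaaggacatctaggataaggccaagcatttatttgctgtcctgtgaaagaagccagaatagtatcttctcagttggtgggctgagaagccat
Gsta3: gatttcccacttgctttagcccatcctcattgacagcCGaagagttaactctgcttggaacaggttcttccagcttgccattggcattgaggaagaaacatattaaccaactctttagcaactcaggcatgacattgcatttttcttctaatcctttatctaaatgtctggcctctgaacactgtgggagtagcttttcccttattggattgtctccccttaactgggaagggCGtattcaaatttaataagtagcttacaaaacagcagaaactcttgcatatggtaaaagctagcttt
Ugt2b5: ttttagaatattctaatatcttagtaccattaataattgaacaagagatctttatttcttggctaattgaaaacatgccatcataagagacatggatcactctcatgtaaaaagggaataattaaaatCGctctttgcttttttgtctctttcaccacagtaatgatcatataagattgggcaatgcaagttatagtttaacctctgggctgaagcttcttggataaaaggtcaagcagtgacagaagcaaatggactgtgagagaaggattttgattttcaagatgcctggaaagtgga
Gstm5: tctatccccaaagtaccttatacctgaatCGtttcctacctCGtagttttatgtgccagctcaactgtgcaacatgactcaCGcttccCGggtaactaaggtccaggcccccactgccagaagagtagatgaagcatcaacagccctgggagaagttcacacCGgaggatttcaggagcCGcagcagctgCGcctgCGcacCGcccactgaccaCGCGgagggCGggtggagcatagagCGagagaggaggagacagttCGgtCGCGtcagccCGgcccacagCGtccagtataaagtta
Mgst3: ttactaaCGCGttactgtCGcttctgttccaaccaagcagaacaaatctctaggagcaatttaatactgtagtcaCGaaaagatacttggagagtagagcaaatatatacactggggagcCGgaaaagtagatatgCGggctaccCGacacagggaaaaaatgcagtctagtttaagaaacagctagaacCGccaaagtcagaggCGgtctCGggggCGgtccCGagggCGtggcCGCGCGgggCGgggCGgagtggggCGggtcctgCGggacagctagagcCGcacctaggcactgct

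**Figure D2:**
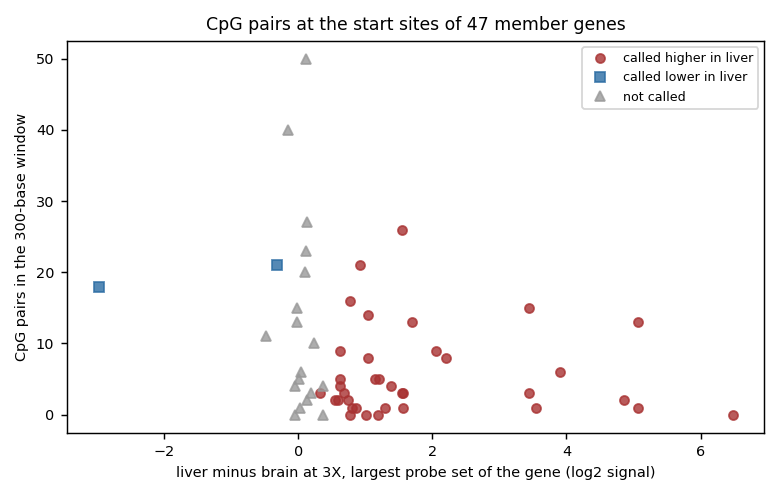
CpG pairs in each 300-base window (vertical axis) against the liver minus brain difference at 3X of the gene's probe set with the largest difference (log2 signal, horizontal axis), for 56 windows of 47 genes, so that a gene with several start sites appears several times. Genes higher in liver (circles) have a median of 3 CpG pairs, and the windows of Gstm5 and Mgst3 (squares) hold 18 and 21.

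Among the enzymes that oxidise alcohols, Adh1, the class I dehydrogenase of ethanol and retinol, stood far above the brain. Its 3X signals were 8.16, 7.95 and 8.72 in liver, against 4.26, 4.18 and 4.26 in cortex and 4.64, 4.59 and 4.33 in cerebellum. The groups were far apart, with a difference of 3.90 ± 0.15 (SE, 3 liver against 6 brain arrays; adjusted p = 1.97e-08) or 14.9-fold. Adh5, which oxidises the glutathione adduct of formaldehyde, read 6.91, 7.13 and 9.07 in liver, against 6.28, 5.73 and 6.12 in cortex and 6.26, 6.29 and 6.26 in cerebellum (95765_at). Liver replicate 3 lay well above the other liver arrays, and the difference was 1.54 ± 0.39 (adjusted p = 0.0167) or 2.91-fold, a call lost without the cerebellum arrays. Adh4, the class II enzyme, read 3.10, 3.44 and 3.95 in liver, against 2.54 to 2.80 in cortex and 2.58 to 2.74 in cerebellum (103982_s_at). It was higher by 0.86 ± 0.16 (adjusted p = 0.00265) with dim brain signals, while its other probe set, 103983_at, differed by 0.16 (adjusted p = 0.174). Adh7, the class IV enzyme known from stomach, was higher by 0.69 (adjusted p = 0.000506).

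Akr1c6, a hydroxysteroid dehydrogenase of the aldo-keto reductases, was far above the brain in liver. It read 8.34, 8.06 and 9.51 in 3X liver, against 1.99, 2.25 and 2.15 in cortex and 2.09, 2.23 and 2.23 in cerebellum. All brain signals were dim, and liver was higher by 6.48 ± 0.25 (adjusted p = 2.17e-08). Akr1c13, a relative in the same gene cluster, read 3.27, 3.54 and 3.62 in liver, against 2.78, 3.16 and 2.78 in cortex and 2.94, 2.95 and 2.90 in cerebellum. Its arrays did not overlap, but the difference was only 0.56 ± 0.11 (adjusted p = 0.00394). The 5 other aldo-keto reductase genes were not called, with differences between -0.47 for Akr1a1, the general aldehyde reductase, and 0.23 for Akr1b8.

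Among aldehyde dehydrogenases, Aldh2, the mitochondrial enzyme that clears acetaldehyde, stood far above the brain. Its probe set 96058_s_at read 7.42, 6.29 and 7.43 in 3X liver, against 3.43, 3.46 and 3.37 in cortex and 3.45, 3.57 and 3.44 in cerebellum. Liver replicate 2 was the lowest liver array and still lay far above the highest brain array, and the difference was 3.59 ± 0.21 (adjusted p = 7.73e-07). The 2 other Aldh2 probe sets were higher by 2.40 (161997_f_at) and 0.56 (96057_at, whose arrays overlapped and which was dim in every tissue). Aldh9a1, which makes a precursor of carnitine, read 5.07, 4.85 and 5.91 in liver, against 2.75, 3.10 and 3.02 in cortex and 3.25, 3.50 and 3.70 in cerebellum, a difference of 2.06 ± 0.20 (adjusted p = 3.71e-05). Aldh1a1, which turns retinaldehyde into retinoic acid, was bright in all tissues, with 9.08, 9.63 and 9.72 in liver, 7.39, 7.28 and 7.32 in cortex and 8.22, 8.64 and 8.63 in cerebellum (100068_at). Liver was 2.96-fold higher (1.57 ± 0.15, adjusted p = 2.33e-05; 2.15 without the cerebellum arrays), but the probe set 161956_at of the same gene differed by 0.05 (adjusted p = 0.804). Aldh1a7, its near relative, was higher by 1.29, Aldh3a2, which oxidises fatty aldehydes, by 0.92 in 1 of 2 probe sets, and Aldh7a1, of lysine breakdown, by 0.61 and 0.84 in 2 of 3. Aldh1a7 was dim in every tissue at 3X. None of the probe sets of Aldh1a2, Aldh1a3, Aldh3a1 and Aldh18a1 passed, with differences between -0.08 and 0.22.

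Carboxylesterases, which split esters and amides of drugs and lipids, were the family without an exception. Ces3a read 9.17, 8.66 and 9.08 in 3X liver, against 2.56, 2.53 and 2.58 in cortex and 2.72, 2.59 and 2.98 in cerebellum. Brain signals were dim in every array, and liver was higher by 6.31 ± 0.12 (adjusted p = 1.02e-10). Ces1d, a triacylglycerol hydrolase of liver, read 6.93, 7.20 and 8.86 in liver, against 2.45, 2.64 and 2.43 in cortex and 3.18, 2.95 and 3.17 in cerebellum (101539_f_at). Its liver arrays were spread widely (SD 1.05, against 0.11 in cortex and 0.13 in cerebellum), and liver was higher by 4.86 ± 0.34 (adjusted p = 2.53e-06). Ces2g read 4.29, 4.55 and 4.94 in liver, against 3.01, 3.41 and 3.00 in cortex and 3.23, 3.31 and 3.27 in cerebellum, 1.39 ± 0.14 higher (adjusted p = 3.95e-05). Ces1c, known as an esterase of mouse plasma, and Ces1g were above the dim limit in brain too, and liver was 1.75-fold and 1.67-fold higher. Of the epoxide hydrolases, the microsomal Ephx1 read 3.86, 4.01 and 4.25 in liver, against 2.94, 2.99 and 2.72 in cortex and 2.79, 3.00 and 2.94 in cerebellum, a difference of 1.14 ± 0.10 (adjusted p = 1.85e-05). The soluble Ephx2, which acts on epoxides of fatty acids, differed by 0.34 ± 0.12 and was not called (adjusted p = 0.0847).

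Glutathione transferases ran in both directions. The microsomal Mgst1 read 7.21, 7.01 and 7.90 in 3X liver, against 2.06, 1.58 and 2.11 in cortex and 2.57, 2.76 and 2.73 in cerebellum. It was higher by 5.07 ± 0.18 (adjusted p = 1.37e-08), with dim signals in both brain regions. Gsta3, the alpha-class enzyme that protects mice from aflatoxin, read 8.56, 8.37 and 9.62 in liver, against 4.09, 3.92 and 3.87 in cortex and 3.94, 3.94 and 4.22 in cerebellum. The difference of 4.85 ± 0.23 (adjusted p = 1.01e-07) is 28.9-fold. Gstz1, an isomerase of tyrosine breakdown, read 7.66, 7.41 and 8.23 in liver, against 3.91, 4.18 and 4.27 in cortex and 4.41, 4.36 and 4.79 in cerebellum, 10.9-fold higher (3.45 ± 0.17, adjusted p = 1.92e-07). Gstt1 of the theta class was higher by 2.21, the mitochondrial and peroxisomal Gstk1 by 1.69, the mu-class Gstm3 and Gstm1 by 1.20 and 1.05 in 1 of 2 probe sets each, and Gsto1, Gstt2, Gstm6 and Gsta2 by 0.59 to 0.78. Of these, Gstt2 and Gstm6 were dim in every tissue at 3X. Gsta1, Gsta4, Gstp1, Gstm2 and Mgst2 were not called. Mu-class transcripts are close in sequence, and 8 of the 12 probe sets for Gstm genes carried a suffix (4 with f and 4 with r) that marks shared or less specific probes, so that their signals cannot be given to 1 gene with certainty.

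Gstm5, a mu-class transferase known from brain and testis, was the gene furthest below the brain in liver. Its probe set 100630_f_at read 7.93, 8.07 and 8.80 in 3X liver, against 11.02, 11.14 and 11.33 in cortex and 11.18, 11.30 and 11.46 in cerebellum. Every brain array was more than 2 units above every liver array, and liver was lower by -2.97 ± 0.17 (adjusted p = 5.27e-07), a ratio of 0.127. The probe set 100629_at read 2.13, 2.25 and 2.29 in liver, against 3.11, 2.63 and 2.90 in cortex and 2.87, 3.37 and 3.22 in cerebellum, dim in every group and lower by -0.79 ± 0.13 (adjusted p = 0.00111). The probe set 161722_f_at was lower by -0.54 ± 0.10 (adjusted p = 0.0031), and 100631_r_at differed by 0.06 (adjusted p = 0.788). Mgst3, a microsomal transferase that can make leukotriene C4, read 5.29, 5.08 and 5.10 in liver, against 5.49, 5.48 and 5.70 in cortex and 5.40, 5.25 and 5.54 in cerebellum (96258_at). Its arrays overlapped, and the call (-0.32 ± 0.09, adjusted p = 0.0293) was lost when any of 5 arrays was left out.

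Of the UDP-glucuronosyltransferases, which attach glucuronic acid, Ugt2b5 read 5.85, 5.26 and 7.13 in 3X liver, against 2.43, 2.58 and 2.36 in cortex and 2.81, 2.50 and 2.54 in cerebellum. The liver arrays were all above the dim brain arrays, and the difference was 3.54 ± 0.31 (adjusted p = 1.53e-05). Ugt2b34 read 3.42, 3.34 and 4.46 in liver, against 2.64, 2.75 and 2.89 in cortex and 2.75, 2.66 and 2.72 in cerebellum, 1.01 ± 0.21 higher (adjusted p = 0.0058). That call was lost without the cerebellum arrays. Ugt8a, which makes the galactolipid of myelin, read 2.70 to 2.81 in liver, 2.78 to 2.87 in cortex and 2.90 to 3.05 in cerebellum and was dim throughout.

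Sulfotransferases had small differences at 3X. Sult3a1, which sulfates amines, read 3.23, 3.37 and 3.96 in 3X liver, against 2.27, 2.56 and 2.32 in cortex and 2.42, 2.15 and 2.27 in cerebellum, 1.19 ± 0.15 higher (adjusted p = 0.000216). Sult1a1, the phenol sulfotransferase, read 3.90, 3.44 and 4.08 in liver, against 3.05, 3.14 and 2.95 in cortex and 3.00, 2.98 and 3.08 in cerebellum, 0.78 ± 0.12 higher (103087_at, adjusted p = 0.00107). Sult2a2, of the hydroxysteroid sulfotransferases, was dim in all 3 tissues, with 2.99, 2.53 and 2.72 in liver, 2.37, 2.26 and 2.32 in cortex and 2.25, 2.35 and 2.37 in cerebellum. It was higher by 0.43 ± 0.10 (adjusted p = 0.0102), a call lost without the cerebellum arrays. Sult1d1, also dim in all 3 tissues, was higher by 0.32, and Sult1b1, Sult1c1, Sult2b1, Sult4a1 and Sult5a1 were not called.

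**Figure D3:**
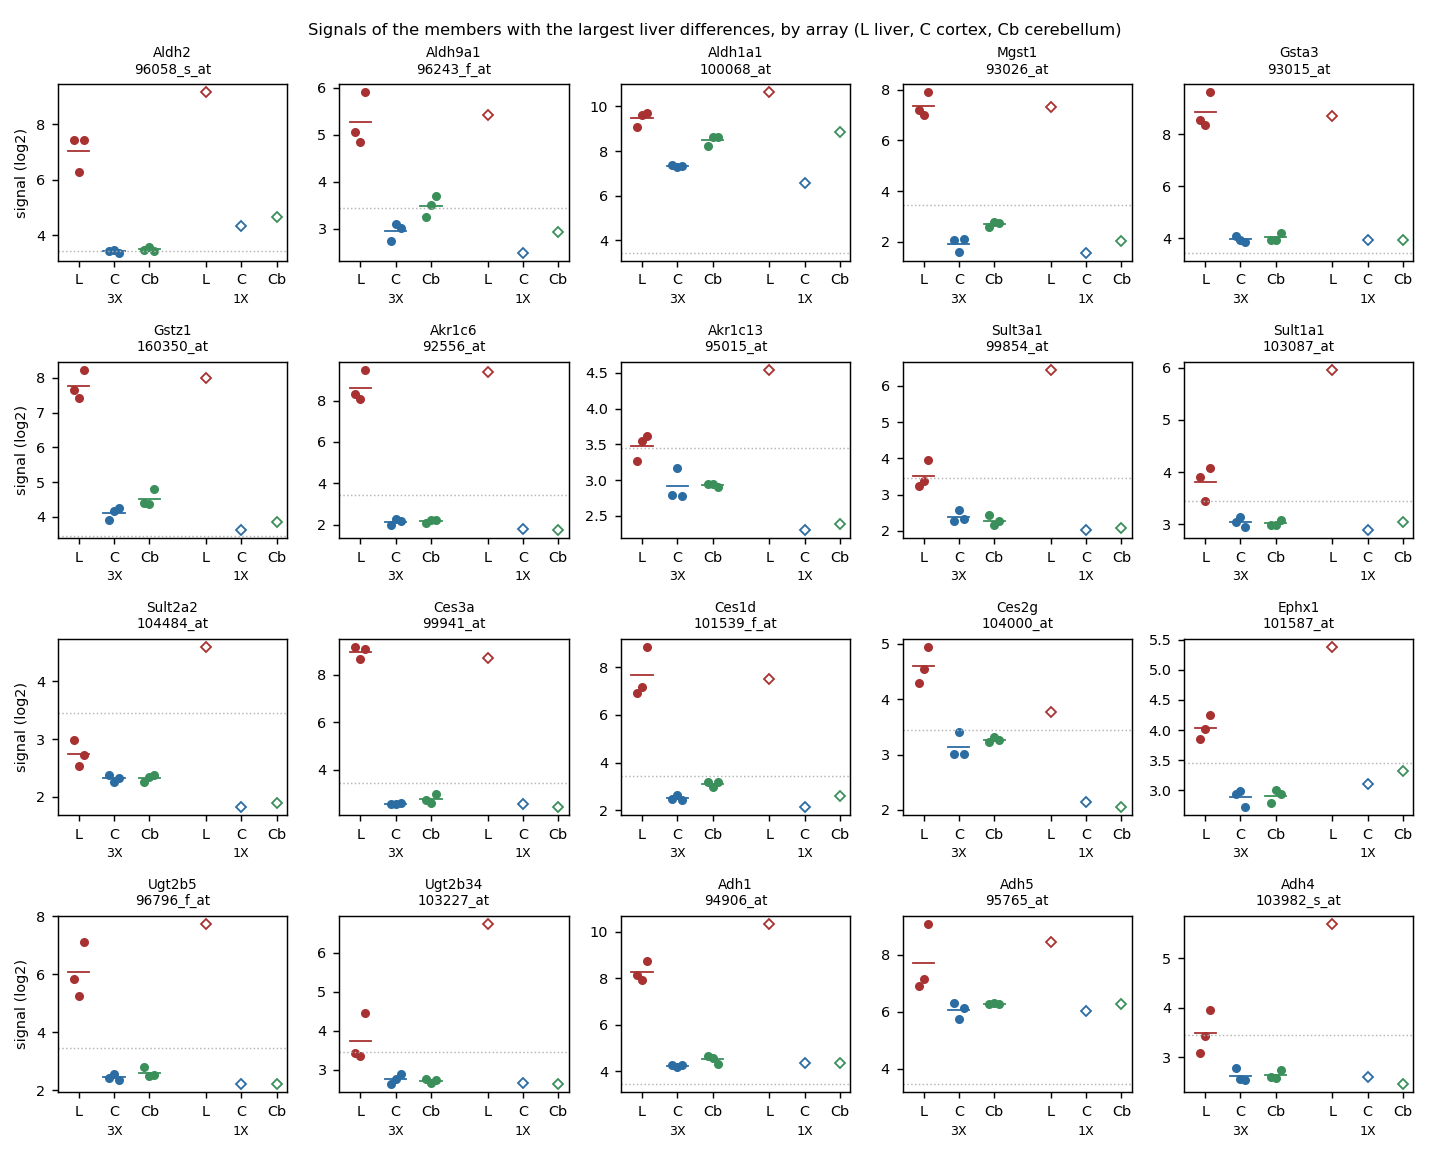
Log2 signals by array for the 20 probe sets with the largest liver excess per family (up to 3 each), with filled circles for 3X arrays, bars for their means, open diamonds for 1X arrays and a dotted line at the lowest array median of 3.45. For Akr1c6, Ces3a, Mgst1 and Gsta3 the 1X liver signal lies within the range of the 3X ones, while for Sult3a1, Sult2a2, Ugt2b34 and Adh4 the 1X liver signal stands far above the 3X ones.

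Liver arrays varied more than brain arrays for these genes. At 3X the median SD of the 79 probe sets was 0.204 for liver, 0.125 for cortex and 0.106 for cerebellum, and over all probe sets it was 0.135, 0.107 and 0.102, and 13 members had an SD over 0.5 in liver against none in either brain region. Replicate 3 was the highest of the 3 liver arrays for 31 of the 40 liver-high probe sets (77.5%), against 529 of the 1015 probe sets higher in liver (52.1%) and 27.5% of all. The shared spread of the fit therefore understates that of liver, as for Ces1d, Adh5 and Ugt2b5. Without liver replicate 3, 44 members were again called, 40 higher and 4 lower, and 42 of these were shared with the fit of all 9 arrays. Without the cerebellum arrays, an alternative chosen after seeing the data, 38 were called, 34 higher and 4 lower.

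Several members lie side by side in the genome, and their tissue patterns can differ. By the RefSeq gene order, 33 of the 58 genes formed 12 runs with at most 4 other genes between neighbours. The 4 alcohol dehydrogenase genes Adh7, Adh1, Adh4 and Adh5 stand together on chromosome 3 and were all higher in liver in at least 1 probe set. On the same chromosome the mu-class run holds Gstm5, lower in liver, beside Gstm6, Gstm3 and Gstm1, higher in liver, and Gstm2, not called. On chromosome 1 Aldh9a1, higher in liver, and Mgst3, lower in liver, are direct neighbours. In the run of aldo-keto reductases on chromosome 13, Akr1c13 and Akr1c6 were higher in liver and Akr1c21 and Akr1e1 were not called. Probe sets of 1 gene can also differ: of 17 genes with several probe sets, 3 (Aldh2, Ces1d and Adh5) were called in all of them, 10 in some and 4 in none.

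Between the brain regions few members differed, and those that did were lower in cortex. Of the 79 probe sets 3 passed, all lower in cortex (3.8%, against 1.06% of all probe sets called, 0.628% lower and 0.435% higher). Aldh1a1, whose retinoic acid acts in brain patterning and in dopamine neurons, was lower in cortex by -1.17 ± 0.17 (SE, 3 arrays a region; adjusted p = 0.00665), a ratio of 0.445, and its 1X arrays read 6.55 in cortex and 8.83 in cerebellum (100068_at). The gene's other probe set, 161956_at, read 6.94 to 7.25 in 3X cortex and 6.84 to 7.13 in cerebellum and did not pass (0.04, adjusted p = 0.991). Gstt1 read 2.60, 2.59 and 2.86 in 3X cortex, against 3.26, 3.39 and 3.55 in cerebellum, lower in cortex by -0.71 ± 0.12 (adjusted p = 0.013). Akr1c21, a hydroxysteroid dehydrogenase known from mouse kidney, read 2.34, 2.43 and 2.31 in 3X cortex, against 2.73, 2.84 and 2.93 in cerebellum, all dim (-0.48 ± 0.08, adjusted p = 0.0174). The regions did not overlap in any of the 3.

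Without regard to the test, a count made after the values were seen, the 3 cortex arrays lay below the 3 cerebellum arrays in 20 probe sets for 19 genes (25.3%, against 8.56% of all) and above them in 0 of 79 (against 7.87% of all). The 19 genes included Adh1, Aldh9a1, Ces1d, Ces3a, Gstk1, Gstm1, Gstz1 and Mgst1, all of which were higher in liver. At 1X, cortex was also below cerebellum in 17 of the 20. The same count was not made for all probe sets with this pattern, so nothing particular to the members is read from it. Mgst1 differed by -0.77 (adjusted p = 0.182), Ces1d by -0.64 and -0.59 and Aldh9a1 by -0.53. Markers of kidney moved with this pattern: 5 of 10 were lower in 3X cortex than in cerebellum, among them the kidney protease Napsa (-3.43) and the androgen-regulated Kap (-1.04), and their summed signal was 156.6 to 166.5 in 3X cortex, against 310.5 to 320.4 in cerebellum. In 1X cerebellum Kap read 8.66 and the inositol oxygenase Miox 8.51, while in 1X cortex they read 4.92 and 4.67. The summed signal of oligodendrocyte markers was lower in cortex too, with 401.8 to 439.9 in 3X cortex, against 755.2 to 964.4 in cerebellum. At 1X it was 2041 in cortex, against 7596 in cerebellum. By the test at 3X, 1 of 6 was lower in cortex, Mbp of myelin (-1.36), which was also the brightest of them. The others ran between -0.40 for Mog and -0.02 for Mag and were not called, so the 3X sum mostly follows Mbp. Ugt8a, which serves myelin, is among the 19 genes. The part of these markers in the enzyme differences was not tested. The 10 hepatocyte markers had none called between the regions, with a median difference of 0.01. Their summed signal was higher in cortex, with 2132 to 2296 in 3X cortex, against 914.1 to 1065 in cerebellum. Ttr was the brightest of them in brain, with 3X means of 11.0 in cortex and 9.73 in cerebellum.

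The count of 3 rested on single arrays. Leaving out 1 array at a time gave 1 to 6 members, all lower in cortex, with 6 without liver replicate 3 and 1 without cortex replicate 1, cerebellum replicate 2 or cerebellum replicate 3. In a fit of the brain arrays alone 6 were called. Aldh1a1 was called in each of these fits, whereas Gstt1 and Akr1c21 each lost the call in 4 of the fits without an array.

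**Figure D4:**
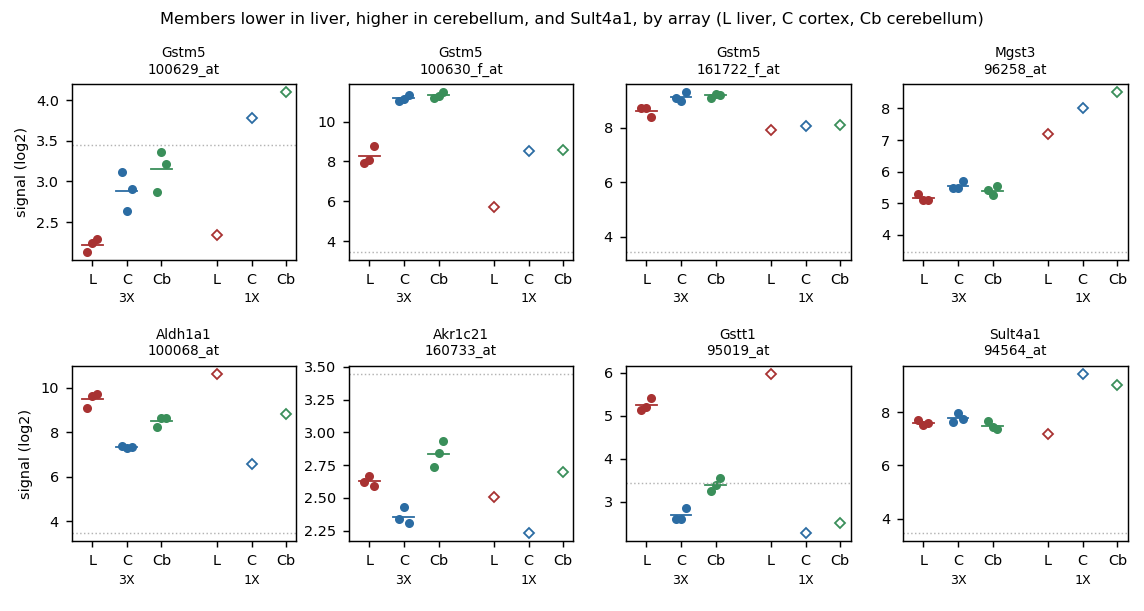
Log2 signals by array for the probe sets lower in liver (Gstm5, Mgst3), those lower in cortex than in cerebellum (Aldh1a1, Akr1c21, Gstt1) and Sult4a1, with filled circles for 3X arrays, bars for their means, open diamonds for 1X arrays and a dotted line at 3.45. The liver arrays of Gstm5 100630_f_at lie below all brain arrays at 3X and at 1X, and the brain signals of Sult4a1 are lower at 3X than at 1X.

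The 1X arrays gave the same tissue directions with larger sizes. All 44 members called at 3X had the same sign at 1X, against 92.8% of the 2537 probe sets called in all. In 38 of the 44 the difference was larger at 1X, and so it was in 1450 of the 2537. Its median size was 1.10 at 3X and 3.03 at 1X, against 0.603 at 3X and 0.839 at 1X over all called probe sets. Liver exceeded brain by more than 1 in 23 members at 3X (29.1%, against 2.33% of all probe sets). At 1X it did so in 43 members (54.4%, against 6.54% of all). The excess was more than 3 in 10 members at 3X (12.7%, against 0.644% of all) and in 22 at 1X (27.8%, against 1.92% of all). Such excesses were thus more frequent at 1X over the whole array too. The 1X differences have no replicate.

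The change of the tissue difference with the procedure was tested as the liver minus brain difference at 3X minus the same at 1X, with the lone 1X arrays assumed to vary like the 3X replicates. It was called in 32 of 79 probe sets (40.5%, against 13.2% of all). In 30 the liver excess was lower at 3X (38.0%, against 6.37% of all) and in 2 the value was higher (2.53%, against 6.87% of all). The median change was -0.57 over the members and 0.02 over all probe sets. All 30 had higher signals in liver than in brain at 1X, 23 were still called higher in liver at 3X, and in 11 liver was dim at 3X but not at 1X. Of the 791 probe sets called lower over the whole array, the same held for 759, 366 and 234. A higher liver signal at 1X was thus usual among such calls. Alcohol dehydrogenases (4 of 6 probe sets), sulfotransferases (6 of 10), epoxide hydrolases (both) and aldehyde dehydrogenases (7 of 18) lost liver excess, and so did 6 of 27 glutathione transferase, 2 of 7 aldo-keto reductase, 2 of 6 carboxylesterase and 1 of 3 UDP-glucuronosyltransferase probe sets. Among hepatocyte markers 7 of 10 also changed this way, with a median of -1.66. Markers of brain cells lost brain excess in the same contrast, with 5 of 7 neuronal (median 1.46), 4 of 7 astrocyte (1.52) and 4 of 6 oligodendrocyte markers (1.61) called and none in the other direction. The count was 44 without liver replicate 3 and 26 without the cerebellum arrays.

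Sult3a1 lost most of its liver excess. It read 3.23, 3.37 and 3.96 in 3X liver and 6.45 in 1X liver, against 2.15 to 2.56 in the 3X brain arrays and 2.02 and 2.07 in the 1X brain arrays. The change was -3.21 ± 0.30 (adjusted p = 4.75e-05). Gstt2, of the theta class, read 2.92, 2.71 and 2.61 in 3X liver and 4.93 in 1X liver, with 1.68 to 2.14 in all brain arrays, a change of -2.30 ± 0.18 (adjusted p = 1.66e-05). Sult2a2 read at most 2.99 in 3X liver and 4.60 in 1X liver, a change of -2.31 ± 0.19 (adjusted p = 2.43e-05). The probe set 97449_at of Aldh7a1 read 4.11, 3.60 and 3.70 in 3X liver and 6.80 in 1X liver, against 3.04 to 3.32 in the 3X and 3.60 and 3.61 in the 1X brain arrays, a change of -2.59 ± 0.22 (adjusted p = 2.87e-05). Adh4, by 103983_at, read 2.52, 2.46 and 2.63 in 3X liver and 4.52 in 1X liver, a change of -1.77 ± 0.15 (adjusted p = 2.18e-05). By this probe set a liver excess of 1.93 at 1X was 0.16 at 3X.

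Sult4a1, a sulfotransferase known from neurons, changed in the direction of the brain markers. It read 7.71, 7.51 and 7.58 in 3X liver and 7.19 in 1X liver. In cortex it read 7.64, 7.95 and 7.74 at 3X and 9.43 at 1X, and in cerebellum 7.66, 7.43 and 7.35 at 3X and 9.03 at 1X. The tissues overlapped at 3X, while at 1X liver was below brain by -2.04, and the change was 2.01 ± 0.19 (adjusted p = 5.66e-05). The other probe set with a higher value was 96258_at of Mgst3 (0.77 ± 0.18, adjusted p = 0.0169), for which liver was below brain by -1.09 at 1X. The difference between cortex and cerebellum changed with the procedure in 0 of 79 members by limma at an adjusted p of 0.05 (0.354% of all), and 3 had an unadjusted p under 0.05.

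Set against 1X, a smaller share of these probe sets than of the whole array was called for a change shared by all tissues. In the additive fit with tissue over 12 arrays, 30 of 79 were called (38.0%, against 56.9% of all). Of these 13 were higher at 3X (16.5%, against 37.5% of all) and 17 lower (21.5%, against 19.5% of all). With the 3 tissues as units the calls were 13 higher and 5 lower, and without the 1X liver array 23 higher and 15 lower, so that the balance of directions rests on these choices. The median change was -0.08 over the members and 0.12 over all probe sets. The additive fit counts a change that differs between tissues as spread. Adh1, for example, changed by -2.05 in liver, -0.14 in cortex and 0.18 in cerebellum and was not called. The smaller share called therefore cannot be read as a smaller response to the procedure. By tissue, all 3 of the 3X arrays lay above the 1X array in 26 members in liver (32.9%, against 54.6% of all), 44 in cortex (55.7%, against 51.9%) and 45 in cerebellum (57.0%, against 55.2%). They lay below it in 41 members in liver (51.9%, against 26.6% of all), 19 in cortex (24.1%, against 29.0%) and 20 in cerebellum (25.3%, against 29.4%). The median 3X minus 1X change in liver was -0.45 for the members and 0.15 over all probe sets. For cortex these medians were 0.14 and 0.11, and for cerebellum 0.16 and 0.14.

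Gstp1, the pi-class transferase, fell far at 3X, where its mean was dim in every tissue. It read 2.35, 3.05 and 3.47 at 3X against 6.41 at 1X in liver, 2.57, 2.63 and 2.85 against 5.39 in cortex, and 3.00, 2.86 and 3.23 against 5.62 in cerebellum. Every 3X array was well below its 1X array, and the change was -2.92 ± 0.22 (SE, 9 arrays at 3X and 3 at 1X; adjusted p = 2.74e-06). Mgst3, by 96258_at, read 5.08 to 5.70 over the 9 arrays at 3X, against 7.18 in liver, 8.01 in cortex and 8.51 in cerebellum at 1X, a change of -2.53 ± 0.16 (adjusted p = 7.79e-07). Adh5, by 98625_s_at, read 3.24, 3.16 and 3.88 in 3X liver against 7.76 in 1X liver, and changed by -2.56 ± 0.41 (adjusted p = 0.000503), while its other probe set, 95765_at, changed by -0.24 (adjusted p = 0.596). Aldh7a1 (97450_s_at, -2.04 ± 0.35), Akr1a1 (-1.89 ± 0.24) and Aldh2 (96058_s_at, -1.40 ± 0.25) followed. Akr1a1 read 5.91 to 7.07 over the 3X arrays, against 8.27 to 8.80 at 1X.

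In the other direction, Aldh2 by 161997_f_at read 5.01, 4.64 and 4.96 in 3X liver against 2.45 in 1X liver. In the brain regions it read 2.15 to 2.79 at 3X, against -1.54 and -1.17 at 1X, which are the only member values below 0. The change was 3.36 ± 0.22 (adjusted p = 1.22e-06). Gstm5, by 100630_f_at, rose by 2.65 ± 0.15 (adjusted p = 5.19e-07): it read 7.93 to 8.80 in 3X liver against 5.69 in 1X liver, and 11.02 to 11.46 in the 3X brain arrays against 8.53 and 8.56 at 1X. Gstm2 (161357_r_at, 1.46 ± 0.14), Ces2g (1.01 ± 0.13), Gstm5 (161722_f_at, 0.95 ± 0.10) and Gsta1 (0.78 ± 0.09) were next, and in all 6 the 1X array lay below all 3X arrays in each tissue. Suffixed probe sets made up 7 of the 13 higher and 5 of the 17 lower calls, and 23 of the 79 members.

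Probe sets of 3 genes were called in opposite directions. Gstm5 rose by 2.65 and 0.95 in its 2 f-type sets and fell by 0.65 (100629_at, adjusted p = 0.00603). Aldh2 rose by 3.36 in 161997_f_at and fell by 1.40 in 96058_s_at, although both placed liver above brain. Mgst3 fell by 2.53 in 96258_at, against a rise of 0.26 in 99576_at (adjusted p = 0.00475), which was dim in every group. For these genes the sign of the 3X effect rests on the probe set read.

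**Figure D5:**
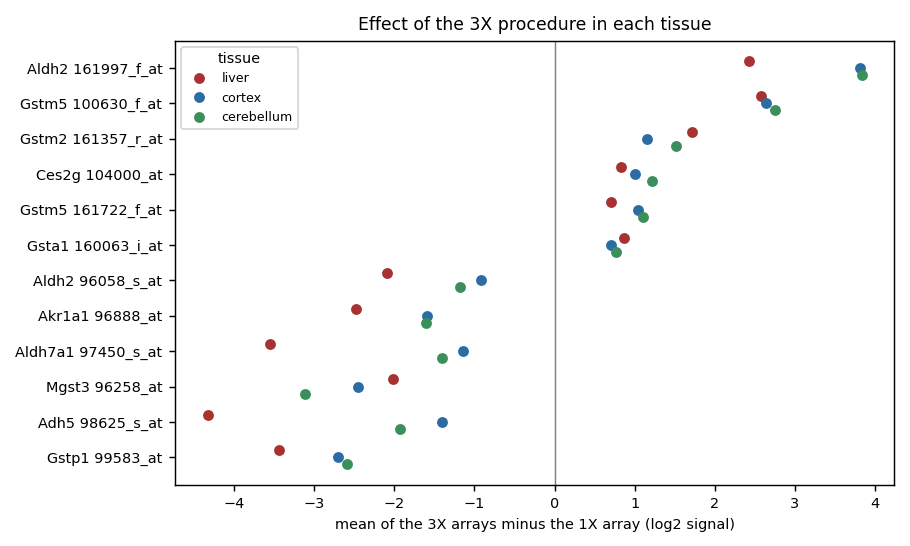
Mean of the 3X arrays minus the 1X array (log2 signal, horizontal axis) in liver, cortex and cerebellum for the 6 probe sets that rose furthest and the 6 that fell furthest at 3X; each point is 1 tissue. The 3 tissues moved the same way in all 12, and liver fell furthest for Adh5, Aldh7a1, Gstp1, Akr1a1 and Aldh2 96058_s_at.

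Genes that feed, follow or regulate these enzymes were also mostly higher in liver where they passed, each gene read by 1 probe set. Their counts stand against 8.17% of all probe sets higher in liver and 12.3% lower. Of the other oxidoreductases 12 of 19 were higher and 0 lower. Among the 12 were the flavin monooxygenase Fmo1 (2.08 ± 0.23, dim in brain), the retinol dehydrogenase Rdh7 (2.07 ± 0.18), the peroxisomal Hsd17b4 (1.08 ± 0.24) and the glyoxalase Glo1 (1.02 ± 0.17). Of other conjugating transferases 4 of 10 were higher, among them the methyltransferases Gnmt (3.37 ± 0.10) and Inmt (2.72 ± 0.16), the bile acid ligase Slc27a5 (0.58 ± 0.12) and the thiopurine methyltransferase Tpmt (0.34 ± 0.10). Among other hydrolases 3 of 11 were higher, the paraoxonase Pon1 (2.34 ± 0.18), the deacetylase Aadac (1.43 ± 0.11) and the lysosomal lipase Lipa (0.73 ± 0.14). The median differences of these lists were 0.42, 0.25 and 0.20, against 0.01 over all probe sets.

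Of the genes that supply glucuronate and sulfate, 3 of 11 were higher in liver, Cdo1 of cysteine breakdown (3.90 ± 0.19), the sulfate transporter Slc26a1 (0.76 ± 0.07) and Pgm1 (0.44 ± 0.13). For glutathione 2 of 9 were higher, the synthesis subunit Gclm (0.67 ± 0.14) and Ggt5 (0.34 ± 0.11), and the peroxidase Gpx3 was lower (-0.58 ± 0.11), with 3X means of 1.64 in liver, 1.78 in cortex and 2.66 in cerebellum, so that the brain value rests mostly on cerebellum. Gpx3, a plasma peroxidase made in kidney, was also the only gene of the related lists called between the brain regions (-0.88 in cortex, adjusted p = 0.0068), and it read 2.51 in 1X cortex and 6.73 in 1X cerebellum. Of 9 conjugate transporters 5 were higher in liver, among them the bile acid carrier Slc10a1 (4.08 ± 0.23), Abcb4 (1.09 ± 0.15), Abcc3 (0.63 ± 0.06) and Abcc6 (0.52 ± 0.11). Of 16 regulators 4 were higher, including the xenobiotic receptor Nr1i3 (1.59 ± 0.13), Cebpa (0.89 ± 0.08) and Ppara (0.85 ± 0.13), and Nfe2l1 was lower (-0.57 ± 0.08). The medians were 0.23 for glucuronate and sulfate supply, 0.13 for glutathione, 0.47 for transporters and 0.10 for regulators. Gpx3, Pgm1, Hsd17b4 and Abcb4 were dim in all 3 tissues at 3X.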

How the data were processed

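Total RNA of 3 tissues was hybridised to 12 arrays, 9 at 3X and 3 at 1X. The authors deposited log2 signals per probe set made with RMA, per the submitters' processing notes; the log base was taken from the range of the values, and the RMA version and whether all arrays were summarised together are not given in any source used here. Array medians lay between 3.45 and 3.48. Genes were named from the platform annotation, by which 10833 of 12422 probe sets carried 1 symbol, 396 several and 1193 none. All 58 gene identifiers of the members matched RefSeq genes of build GRCm38.p6, and no symbol differed. Differences were computed by limma's moderated linear models (version 3.58.1, R version 4.3.3; two-sided), adjusting p by Benjamini and Hochberg's method over 12422 probe sets and a call at an adjusted p under 0.05. The tissue contrasts used the 9 3X arrays with 1 shared spread, the 3X effect an additive model with tissue over 12 arrays, and its dependence on tissue contrasts of 6 group means. The fits for liver minus brain, 3X minus 1X and the change of the liver difference were run on simulated data. There each probe set had the same normal spread in all 12 arrays, whereas liver varied more in the data. The contrasts of cortex and cerebellum were not simulated.

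Named were up to 3 members a family with the largest called liver difference without overlap, all called lower in liver or between brain regions, the 6 highest and 6 lowest called for 3X, the 6 with the lowest p for the change of the liver difference, genes whose probe sets were called in opposite directions, and up to 4 genes a related list. Further members are given by their range or value. The members, lists, tests and this rule were chosen with earlier results of these data known. Related and marker genes were read by their probe set with the highest mean. Alternatives were quantile normalization, median centring, probe sets above the median level or without a suffix, trend and robust eBayes, a replicate block, other sets of arrays, tissues as units, gene means and leaving out each array. Same-numbered arrays of different tissues deviated together in some pairs only (r of their deviations between -0.099 and 0.342), so the numbers were not taken to pair them. The highest values were those among the arrays of replicate 3 (0.294 to 0.342). Their pairs with other numbers ran between -0.359 and 0.079. An effect shared by the arrays of replicate 3 was therefore not excluded. For arrays, their number limits the precision.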

Additional observations from a re-analysis of the deposited data

Results flagged for a closer look

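The liver minus brain difference depended on the procedure for 32 of 79 members (40.5%) by the test of its change between 3X and 1X, against 13.2% of all probe sets. The members with the lowest p were Gstt2 (-2.30), Adh4 by 103983_at (-1.77), Sult2a2 (-2.31), Aldh7a1 by 97449_at (-2.59) and Sult3a1 (-3.21), with a smaller liver excess at 3X, and Sult4a1 (2.01), which was lower in liver than in brain only at 1X. By limma the adjusted p of these 6 ran between 1.66e-05 and 5.66e-05. Gstt2, Sult2a2 and the Adh4 probe set were dim in all 3 tissues at 3X, and all rest on 1 array per tissue at 1X.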

How the results depend on the processing

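Direction and call held in 796 recomputed values of named members, while 24 lost the call and 3 changed sign. The recounts that follow also stand without the share of all probe sets under the same setting. The count for liver minus brain was 41 to 44 without 1 array and 27 of 43 above the median level. For its change with the procedure it was 32 to 44 without 1 array and 15 of 43 above the median level. For cortex minus cerebellum it was 1 to 6 without 1 array and 6 with the brain arrays alone, and its change with the procedure had 0 throughout. For 3X minus 1X it was 29 to 38 without 1 array, 18 above the median level, 18 with no suffix, 18 with tissues as units (13 higher and 5 lower, 72.2% higher against 43.3%) and 19 with gene means. The cause was not tested beyond the fewer probe sets that the level, suffix and gene-mean settings test. Gene means turned the 3X sign of Aldh2 96058_s_at to 0.42, of Gstm5 100629_at to 0.67 and of Mgst3 99576_at to -1.14, since the mean adds the probe sets that moved the other way. The median change of all probe sets was 0.12 as deposited, 0.08 after quantile normalization and 0.14 after centring. Without the cerebellum arrays, added after seeing the data, the counts were 38, 25 for 3X minus 1X and 26. With the replicate number as a block 45 members (41 higher) were called for liver minus brain and 3 between the brain regions. The main fits did not take the numbers to pair the arrays.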

Other observations

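A further probe set is shared by several Ugt1a genes, which use 1 set of common exons, and was outside the rule because it carries several symbols. It read 5.67, 5.97 and 6.64 in 3X liver, against 3.82, 3.96 and 3.73 in cortex and 4.62, 4.60 and 4.63 in cerebellum, and 6.55 in 1X liver, against 2.74 in cortex and 3.92 in cerebellum. Liver was higher by 1.87 ± 0.17 (limma adjusted p = 2e-05), and the cerebellum arrays lay above the cortex arrays without overlap, as did those of 20 members.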
